A study of Mus musculus with 12 samples.

Results

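The extracellular matrix and stromal genes described here are 35 listed genes for matrix proteins, the enzymes and chaperones that build them, and receptors and regulators of the connective tissue cells that make them. All 35 were matched among 24562 genes counted in RNA labelled as that of peritoneal macrophages, which are phagocytes residing in the abdominal cavity; the mice were female. The 12 libraries form 4 groups of 3: macrophages of mice on a high fat diet (HFD) at 24 h of lipopolysaccharide (LPS), HFD at 0 h of LPS, chow diet at 24 h and chow diet at 0 h. LPS is a component of bacterial cell walls that Toll-like receptor 4 senses. The labels give no genotype, strain, age or length of the diet. No labelled group had 24 h without LPS, so the effects of LPS and of time cannot be told apart, and "with LPS" stands for 24 h against 0 h. The series title names the pentose phosphate pathway and hypercholesterolemia, and the labels name no aim for these genes. The comparisons here are LPS within each diet and diet at each time. Values of a group are given in the order of replicates 1 to 3.

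The matrix of connective tissue is built from fibrillar collagens, which give it tensile strength, a basement membrane of type IV collagen and nidogens, elastic fibres, and adhesive glycoproteins such as fibronectin. Fibroblasts, mesothelial cells and the cells around vessels are its usual makers. Macrophages are known to transcribe some of it themselves, among them fibronectin, thrombospondin 1 and the transforming growth factor beta (TGF-beta) induced protein Tgfbi, while fibrillar collagens are taken as markers of stromal cells.

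Of the 35 members, 34 passed a filter on low counts, which kept 12641 genes in all. The exception was Lum, a collagen-binding proteoglycan, with 0 to 23 counts per library. Library totals ran from 2360244 counts in HFD 0 h replicate 3, which stood apart as the shallowest, to 20688308 in HFD 24 h replicate 3. Together the members held 0.477%, 0.390% and 0.522% of the counts of the HFD 24 h libraries, 0.296%, 0.284% and 0.411% at HFD 0 h, 0.953%, 0.790% and 0.550% at chow 24 h, and 0.703%, 0.511% and 0.329% at chow 0 h. The labels mark 4 libraries with lane 8, namely HFD 24 h replicate 1 and all 3 of chow 24 h.

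Promoters are printed for 4 members: Tgfbi and Thbs2, which rose with LPS on both diets, and the collagen genes Col1a2 and Col3a1, whose levels followed each other in the chow libraries and which did not pass the LPS test. Each line gives the 250 bases before the gene's start, 5′ to 3′ on the strand of the gene, from RefSeq on GRCm38.p6, the build behind mm10. The windows are chr13:56609336-56609585 (plus strand) for Tgfbi, chr17:14694263-14694512 (minus strand) for Thbs2, chr6:4505368-4505617 (plus strand) for Col1a2 and chr1:45311288-45311537 (plus strand) for Col3a1. Capitals mark matches, on either strand, to TATAAA (a core promoter element), to CCAAT (bound by factor NF-Y), to TGANTCA (the AP-1 motif) or to CAGAC (which holds the AGAC core bound by SMAD factors, which act downstream of TGF-beta), none of which overlapped each other.
Tgfbi: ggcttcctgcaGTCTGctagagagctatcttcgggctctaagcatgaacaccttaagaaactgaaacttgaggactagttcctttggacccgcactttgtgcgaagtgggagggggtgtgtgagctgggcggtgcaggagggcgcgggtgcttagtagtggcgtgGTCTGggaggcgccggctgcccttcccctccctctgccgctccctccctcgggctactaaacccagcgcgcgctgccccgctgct
Thbs2: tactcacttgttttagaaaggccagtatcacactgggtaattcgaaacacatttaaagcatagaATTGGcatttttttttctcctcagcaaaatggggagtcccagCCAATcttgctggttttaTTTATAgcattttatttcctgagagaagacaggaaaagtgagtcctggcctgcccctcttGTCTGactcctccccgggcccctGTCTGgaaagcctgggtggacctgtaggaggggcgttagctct
Col1a2: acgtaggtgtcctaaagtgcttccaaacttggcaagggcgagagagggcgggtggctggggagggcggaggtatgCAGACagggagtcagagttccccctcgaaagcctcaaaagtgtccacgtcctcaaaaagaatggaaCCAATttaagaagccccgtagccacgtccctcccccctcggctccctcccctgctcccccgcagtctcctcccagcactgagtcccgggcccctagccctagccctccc
Col3a1: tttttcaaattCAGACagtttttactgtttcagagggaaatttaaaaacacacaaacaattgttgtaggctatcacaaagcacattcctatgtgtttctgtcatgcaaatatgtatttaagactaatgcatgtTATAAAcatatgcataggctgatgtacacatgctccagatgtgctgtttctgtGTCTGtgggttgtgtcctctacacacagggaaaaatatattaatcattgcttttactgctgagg
Counting back from the start at -1, Tgfbi held CAGAC on the opposite strand at -239 to -235 and -85 to -81. Thbs2 held it on the opposite strand at -66 to -62 and -43 to -39, besides CCAAT on the opposite strand at -186 to -182, CCAAT on its own strand at -144 to -140, and TATAAA on the opposite strand at -126 to -121. Col1a2 held CAGAC at -175 to -171 and CCAAT at -109 to -105. Col3a1 held CAGAC at -239 to -235 and, on the opposite strand, at -64 to -60, and TATAAA at -117 to -112. None of these 4 windows held TGANTCA. A promoter window was matched for 22 of the 35 members. CAGAC was found in 14 of the 22 and in 42.2% of all 32851 windows, CCAAT in 6 and 33.8%, TATAAA in 4 and 12.4%, and TGANTCA in 1 and 6.7%. Members were counted as genes with a match in any of their windows and the background as single windows, so the shares differ in unit. These matches describe letters and not binding.

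Levels are given in CPM, a gene's counts relative to a library total scaled by TMM factors, and between genes in CPM per kb of transcript. Averaged over the 12 libraries, the highest levels per kb were those of Fn1 (163 CPM per kb), the gene for fibronectin, and of Tgfbi (135), Col1a1 (114) and Thbs1 (111). Sparc, which binds collagen during its assembly, and Col1a2 were at 84.3 and 84.1 CPM per kb. Next came the small proteoglycan gene Bgn (71.1) and Serpinh1, the collagen chaperone HSP47 (49.3). The remaining 26 members with a transcript length averaged 0.185 (Lum) to 38.0 (Col3a1) CPM per kb, and Mfap5, a microfibril protein without a matched length, was at 0 to 22 counts per library. A collagen mRNA was thus the third in level among members in RNA labelled as macrophage RNA, and all 11 macrophage markers, such as Adgre1, Csf1r and Cd68, were detected, summing to between 12252 and 19160 CPM per library.

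**Figure D1:**
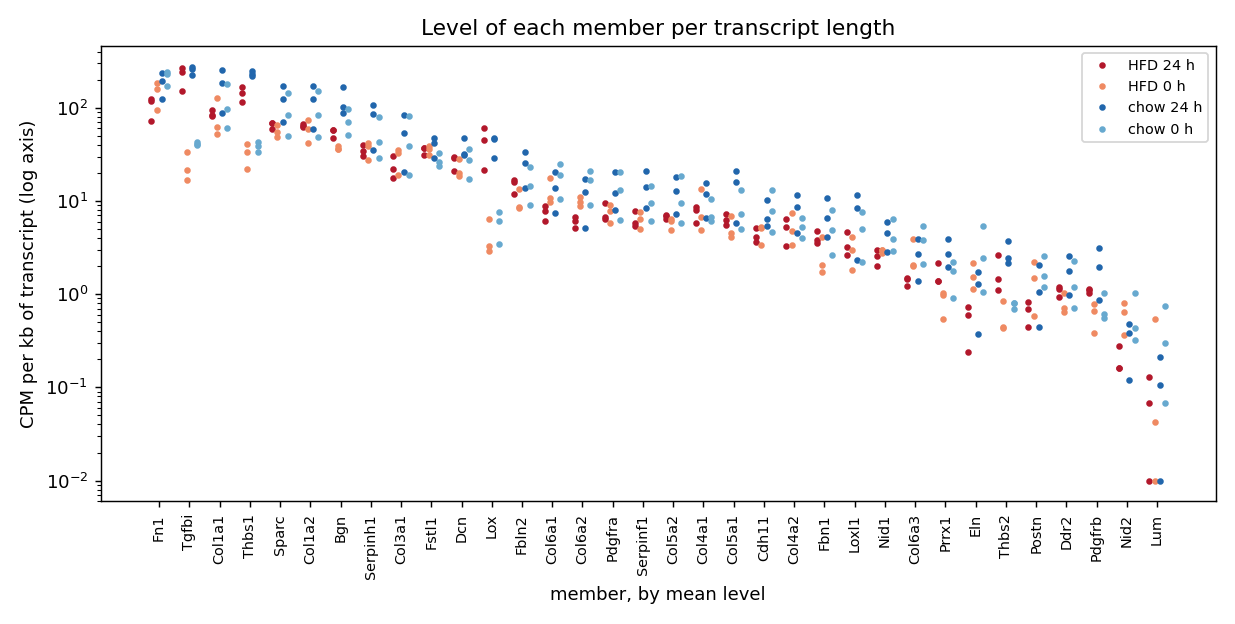
Level of each member with a transcript length, in CPM per kb on a log axis, with 1 point for each of the 12 libraries, coloured by group. Members run from the highest mean, Fn1 at 163 CPM per kb, to the lowest, Lum at 0.185, and libraries without a Lum count are drawn at 0.01.

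Libraries of the same group differed more in the members than in most genes. The SD of log2(CPM + 0.5) within chow 24 h had a median of 0.67 over the 34 members, against 0.21 over all tested genes, and within chow 0 h of 0.63 against 0.15. In HFD the member medians were 0.27 at 24 h and 0.46 at 0 h, against 0.21 and 0.30 over all genes. Chow replicate 1 held the highest value of its group for 30 of 34 members at 24 h and for 30 of 34 at 0 h, and chow replicate 3 the lowest for 31 and 29. The exceptions included Thbs1, Thbs2 and Tgfbi at both times. At chow 0 h these had the smallest ratios of the highest to the lowest library among the 34 members (1.29, 1.16 and 1.06). In HFD 0 h the shallow replicate 3 held the highest value for 20 of 34 members, and in HFD 24 h the highest values were spread over replicates 1, 2 and 3 (14, 8 and 12 members). In bulk RNA, fewer cells of a type and less RNA per cell cannot be told apart.

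Markers of other cells were set beside this pattern. The mural list (8 markers of smooth muscle cells and pericytes, such as Acta2, Tagln and Des) summed to 99.0, 45.7 and 70.1 CPM at HFD 24 h, 78.8, 91.8 and 80.4 at HFD 0 h, 124, 108 and 68.5 at chow 24 h, and 201, 111 and 83.8 at chow 0 h. The mesothelial list (11 of 12 markers matched) summed to 8.85 to 11.5 CPM at HFD 24 h, 20.0 to 29.2 at HFD 0 h, 27.7, 18 and 11.3 in the chow 24 h replicates and 31.5, 27.2 and 16.7 in the chow 0 h replicates. Both lists thus had the same order of chow replicates as most members. The 11 fibroblast markers outside the members summed to 645 to 777 CPM at HFD 24 h, 217 to 288 at HFD 0 h, 1012, 920 and 1084 at chow 24 h and 332, 332 and 351 at chow 0 h. Most of this was Pdpn, which activated macrophages also make and which set the replicate order of the sum. Pdpn was at 952, 880 and 1060 CPM at chow 24 h and 301, 313 and 334 at chow 0 h. Among the other fibroblast markers, Clec3b was at 0 in 10 of 12 libraries and Pi16 and Dpt stayed below 1.1 CPM, while Mmp2 was at 43.9, 27.8 and 13.8 CPM at chow 24 h and 20.1, 9.24 and 9.14 at chow 0 h. Medag and Twist1, at low levels, likewise ran from the highest in chow replicate 1 to the lowest in replicate 3 at both times. Thy1 was highest in replicate 1 but lowest in replicate 2, and Col14a1 was highest in replicate 1 at 24 h only. The adipocyte marker Adipoq and the endothelial markers Tek, Emcn, Cldn5 and Robo4 were at 0 in every library. Their part in the member values was not tested.

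**Figure D2:**
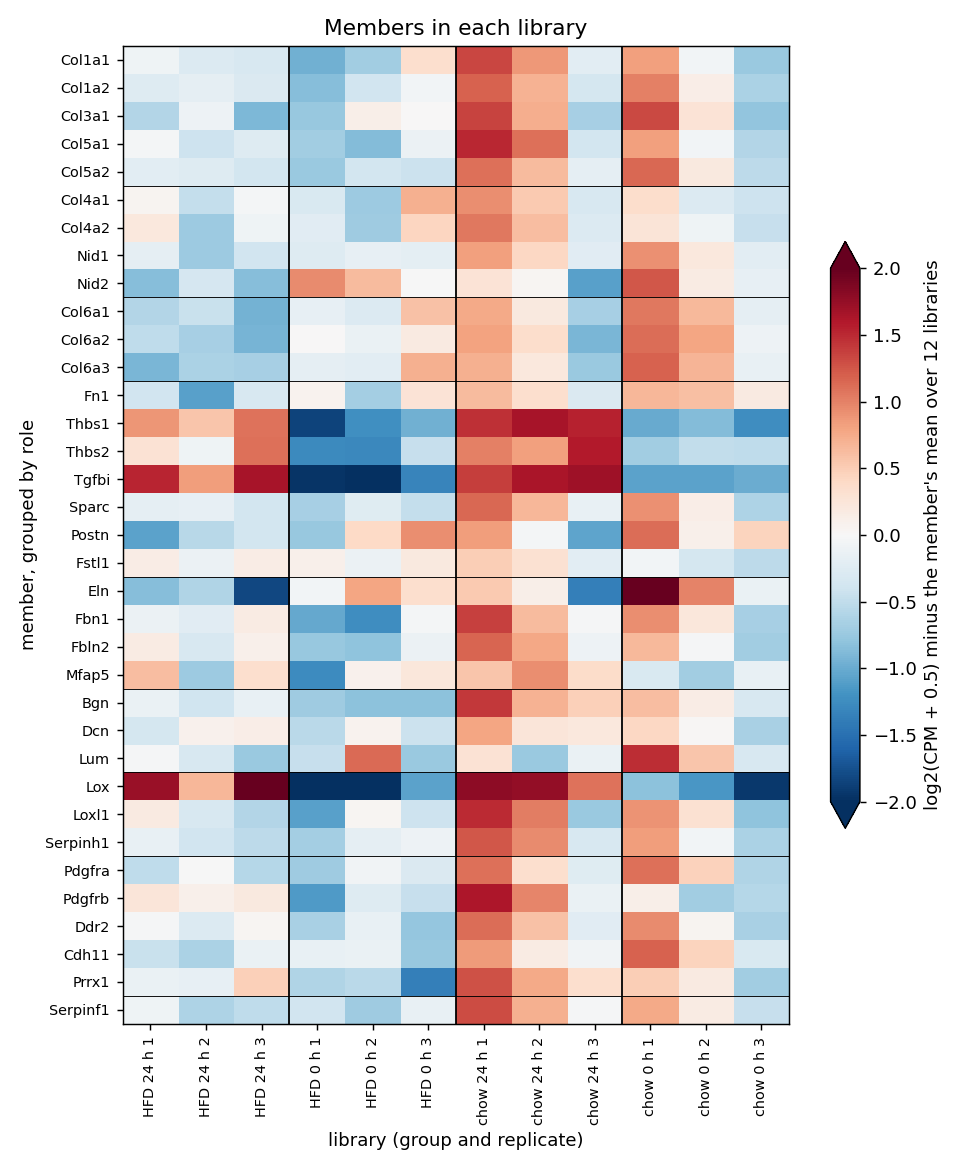
Heat map of the 35 members, grouped by role, in the 12 libraries: log2(CPM + 0.5) minus the member's own mean, with the colour scale ending at -2 and 2. Thbs1, Thbs2, Tgfbi and Lox are higher at 24 h in both diets, while for most other members the libraries chow 24 h 1 and chow 0 h 1 are the highest of their groups.

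With LPS, 4 members rose in macrophages of both diets: Thbs1, Thbs2, Tgfbi and Lox. In HFD, 5 of 34 members passed at an adjusted p of 0.05 in edgeR (4 up and 1 down; quasi-likelihood test, Benjamini-Hochberg adjustment), against 24.6% of all tested genes. In chow, 7 of 34 passed, all up, against 26.6% of all tested genes. Up calls alone made 11.8% of the members in HFD, against 12.7% of all genes, and 20.6% in chow, against 13.7%. Counted in either direction, the share of members that passed in this fit of 4 group means was below that of all genes in both diets. The chow count was 4 when chow 24 h replicate 1 was left out, 4 when replicate 2 of chow 0 h was, and 11 when replicate 1 of chow 0 h was. In both diets more members passed with the label number as a block, a pairing that the labels do not state. For these other fits the share of all genes is not given, so the comparison with all genes covers the fit of 4 group means only. The median log2 fold change of the members was 0.14 in HFD and 0.49 in chow, against 0.00 over all genes in both. Both medians moved with single libraries: the chow one was 0.09 without chow 24 h replicate 1, 0.21 without chow 0 h replicate 3 and 0.85 without chow 0 h replicate 1, and the HFD one was -0.02 without HFD 0 h replicate 1, 0.06 without HFD 24 h replicate 1 and 0.22 without HFD 0 h replicate 3. Within chow the lane 8 mark covers each 24 h library and no 0 h library, and its effect cannot be told apart from that of LPS. With lane as a term of the fit, estimated from the HFD 24 h libraries, these 4 members were the ones that passed in chow.

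Tgfbi (chromosome 13, 56609586 to 56639359) encodes a secreted adhesion protein named for its induction by TGF-beta. In HFD macrophages it had 664, 415 and 724 CPM at 24 h, against 59.1, 45.6 and 92.1 CPM at 0 h. In chow macrophages it had 605, 716 and 751 CPM at 24 h, against 110.0, 109 and 116 CPM at 0 h. The groups were far from overlapping, with log2 fold changes of 3.24 ± 0.24 (SE, edgeR adjusted p = 2.9e-08) in HFD and 2.63 ± 0.23 (adjusted p = 1.8e-07) in chow.

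Thbs1 (chromosome 2, 118111876 to 118127133) encodes thrombospondin 1, a glycoprotein that can activate latent TGF-beta. Its level was 854, 680.2 and 980.4 CPM at HFD 24 h, against 128, 198 and 237 CPM at HFD 0 h. In chow it was 1278, 1446 and 1338 CPM at 24 h, against 230.0, 252 and 195 CPM at 0 h. All 24 h libraries were above all 0 h libraries, and the log2 fold changes were 2.17 ± 0.20 (edgeR adjusted p = 2.6e-07) in HFD and 2.58 ± 0.20 (adjusted p = 3.2e-08) in chow. Its relative Thbs2 (chromosome 17, 14665500 to 14694262), thrombospondin 2, was at a far lower level, 1.46 CPM per kb on average, against 111 for Thbs1. Thbs2 had 8.62, 6.55 and 15.6 CPM at HFD 24 h, against 2.6, 2.56 and 4.94 CPM at HFD 0 h, and 14.5, 12.6 and 21.9 CPM at chow 24 h, against 4.12, 4.78 and 4.74 CPM at chow 0 h. It rose by 1.78 ± 0.36 (edgeR adjusted p = 0.0013) in HFD and 1.85 ± 0.32 (adjusted p = 0.00027) in chow on the log2 scale, again without overlap of the groups.

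Lox encodes lysyl oxidase, which cross-links collagen and elastin outside the cell. It had 213, 102 and 286 CPM at HFD 24 h, against 15.7, 13.8 and 30.6 CPM at HFD 0 h. In chow the values were 223, 219 and 138 CPM at 24 h, against 36.2, 28.6 and 16.5 CPM at 0 h. Its log2 fold changes, 3.45 ± 0.43 (edgeR adjusted p = 3.9e-05) in HFD and 2.83 ± 0.40 (adjusted p = 0.00011) in chow, were the largest among the members. The related oxidase Loxl1 did not pass, with log2 fold changes of 0.21 ± 0.56 in HFD and 0.57 ± 0.51 in chow. Genes of its substrates did not pass in the fit of group means. There Col1a1 had log2 fold changes of 0.12 ± 0.44 in HFD and 0.65 ± 0.44 in chow, and Eln of -1.65 ± 0.66 (adjusted p = 0.087) and -1.41 ± 0.59 (adjusted p = 0.099). With the label number as a block, Col1a1 passed in chow (edgeR adjusted p = 0.024). Eln fell with that block in both diets (edgeR adjusted p of 0.0023 in HFD and 0.0025 in chow). Eln also fell in HFD when just the HFD libraries were fitted (edgeR adjusted p = 0.015). In chow it fell without chow 0 h replicate 3 (edgeR adjusted p = 0.022).

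**Figure D3:**
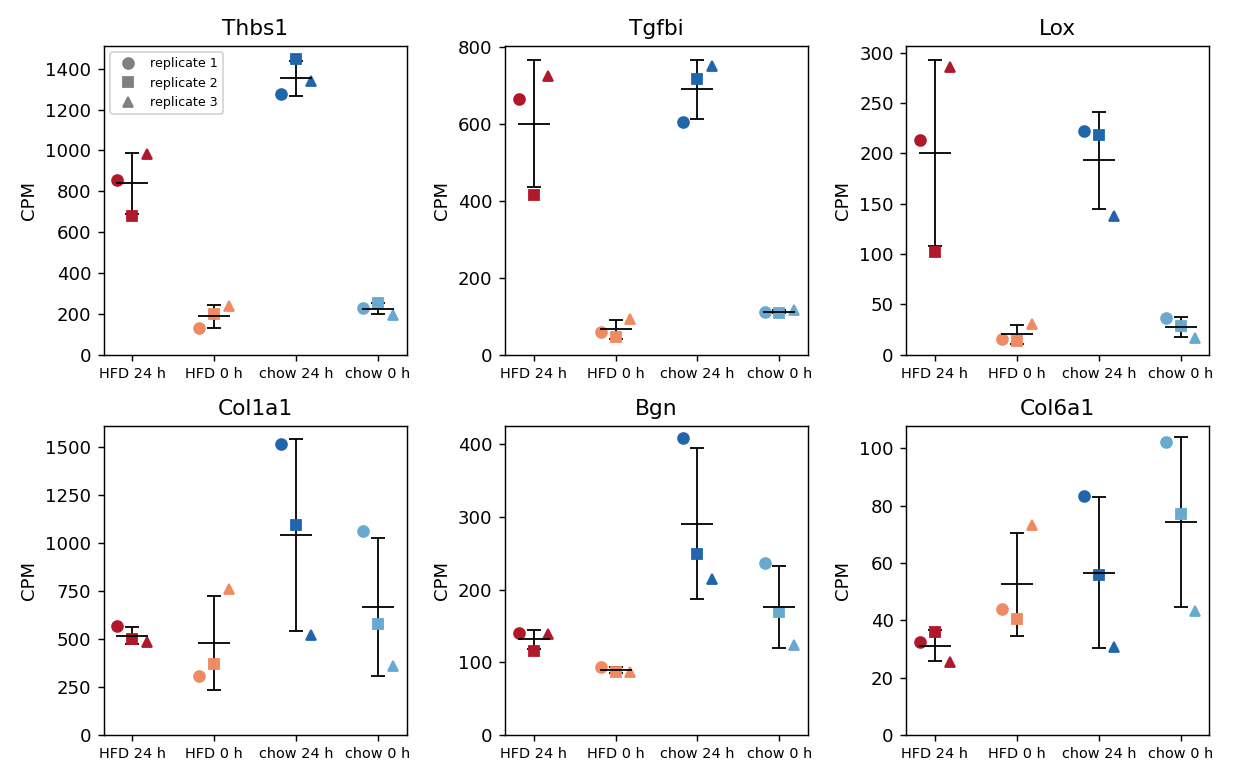
CPM of 6 members in each library (symbols stand for replicates 1 to 3), with the mean and SD of the 3 libraries of each group. Thbs1, Tgfbi and Lox are higher in each 24 h library than in any 0 h library, while in Col1a1, Bgn and Col6a1 the chow libraries spread widely, as with Col1a1 at 1517, 1093 and 519 CPM at chow 24 h.

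Another 3 members passed with LPS in chow, with calls that were lost when single libraries were left out. Bgn (chromosome X, 73483601 to 73495936), the proteoglycan biglycan, had 409, 249.6 and 215 CPM at chow 24 h, against 236, 169.7 and 123 CPM at chow 0 h, and the groups overlapped. Its log2 fold change was 0.72 ± 0.23 (edgeR adjusted p = 0.028). Fstl1 (chromosome 16, 37777055 to 37836516), a secreted glycoprotein of the follistatin family, had 181, 159 and 110.2 CPM at chow 24 h, against 123, 100.1 and 88.9 CPM at chow 0 h, with a log2 fold change of 0.53 ± 0.17 (adjusted p = 0.032). Pdgfrb, the platelet-derived growth factor receptor of mural cells and fibroblasts, had 16.9, 10.7 and 4.65 CPM at chow 24 h, against 5.62, 3 and 3.32 CPM at chow 0 h, with 1.42 ± 0.39 (adjusted p = 0.011). Without chow 24 h replicate 1, the log2 fold changes were 0.41 for Bgn, 0.38 for Fstl1 and 0.94 for Pdgfrb, with edgeR adjusted p of 0.18, 0.16 and 0.097. Without chow 0 h replicate 2 the edgeR adjusted p was 0.087 for Bgn, 0.11 for Fstl1 and 0.061 for Pdgfrb. Without chow 0 h replicate 3 it was 0.12 for Bgn and 0.14 for Fstl1, and without chow 24 h replicate 2 it was 0.084 for Fstl1. The groups of Fstl1 and Pdgfrb overlapped as well. With the label number as a block, Bgn, Fstl1 and Pdgfrb passed in chow at edgeR adjusted p of 0.00026, 0.0047 and 0.0036. Chow 24 h replicate 1 also had the highest Mmp2 value, 43.9 CPM. Of the 6 tested fibroblast markers outside the members, 3 rose in chow (50.0%, against 13.7% of all genes). They were Pdpn (1.61 ± 0.14), which activated macrophages also make, Thy1 (1.65 ± 0.34) and Mmp2 (1.15 ± 0.37). Of the same 6, 1 fell (16.7%, against 12.9%), namely Col14a1 (-2.63 ± 0.70). Their part in these calls was not tested.

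In HFD the same 3 members did not pass in the fit of 4 group means. Bgn had 140.1, 116 and 138 CPM at 24 h, against 94.0, 86.5 and 87.2 CPM at 0 h, so its groups did not overlap, yet with a log2 fold change of 0.56 ± 0.23 its edgeR adjusted p was 0.099, and 0.023 when just the 6 HFD libraries were fitted. With the block, the edgeR adjusted p of Bgn in HFD was 0.0032. Fstl1 had 141, 118 and 141 CPM at 24 h, against 137, 119 and 147 CPM at 0 h, and its groups overlapped (log2 fold change -0.00 ± 0.18). Pdgfrb had 6.17, 5.54 and 6 CPM at 24 h, against 2.08, 4.23 and 3.59 CPM at 0 h (0.87 ± 0.43, adjusted p = 0.17). The LPS changes of the diets were not shown to differ for any of them: of all 34 members none passed the interaction test in edgeR, DESeq2 or limma-voom, nor did any of the 12641 genes in edgeR (0.00%), and 1 member, Fstl1, had an unadjusted p under 0.05 there (interaction -0.53 ± 0.25, the adjusted p of every member was above 0.99).

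The single member called down in the fit of 4 group means was Nid2 (chromosome 14, 19751257 to 19811787), the basement membrane linker nidogen 2, in HFD. It had 0.791, 1.34 and 0.785 CPM at HFD 24 h, against 3.95, 3.11 and 1.8 CPM at HFD 0 h, with a log2 fold change of -1.68 ± 0.56 (edgeR adjusted p = 0.036). The groups did not overlap, but counts were low, with as few as 4 in a library, and the edgeR adjusted p was 0.14 without HFD 0 h replicate 1, 0.13 without HFD 24 h replicate 3, 0.073 without HFD 0 h replicate 2 and 0.095 without HFD 24 h replicate 1. In chow Nid2 had 2.31, 1.88 and 0.589 CPM at 24 h, against 4.99, 2.11 and 1.58 CPM at 0 h (-0.87 ± 0.53, adjusted p = 0.25). Of the 7 tested mesothelial markers, 4 fell with LPS in HFD (57.1%) and 2 in chow (28.6%), and none rose. Over all tested genes, 1511 of 12641 fell in HFD and 1628 (12.9%) in chow. Lrrn4 and Upk3b fell in both diets, while Krt8 and Bnc1 passed in HFD only. Msln, Krt19 and Wt1 did not pass in either diet. Wt1 had log2 fold changes of -0.24 ± 0.36 in HFD and 0.25 ± 0.33 in chow. Lrrn4 had log2 fold changes of -4.26 ± 0.78 in HFD and -3.08 ± 0.75 in chow, and means of 0.204 and 0.300 CPM at 24 h. Their part in the Nid2 values was not tested.

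**Figure D4:**
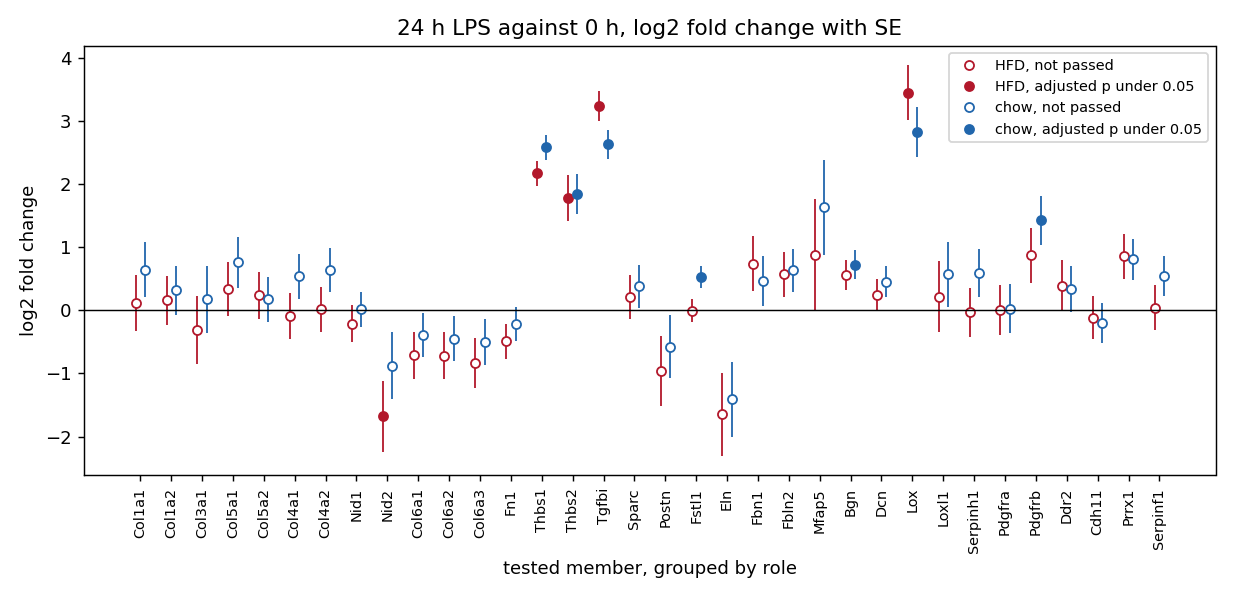
Log2 fold change (24 h of LPS against 0 h) of each of the 34 tested members in HFD and in chow, with bars of 1 SE and filled points for an adjusted p under 0.05. Tgfbi, Lox, Thbs1 and Thbs2 pass in both diets, at 1.78 to 3.45, and the 3 collagen VI genes lie below 0 in both without passing.

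The structural collagens did not pass with LPS in either diet in the edgeR fit of 4 group means over all 12 libraries. With the block by label number, some passed. In chow Col1a1 (edgeR adjusted p = 0.024), Col5a1 and Col4a2 rose and Col6a2 and Col6a3 fell. In HFD Col6a1, Col6a2 and Col6a3 fell. Without the block, the log2 fold changes of the fibrillar collagens ran from -0.32 (Col3a1) to 0.34 (Col5a1) in HFD. In chow they ran from 0.18 (Col3a1 and Col5a2) to 0.76 (Col5a1). Col1a1, the main chain of type I collagen, had 568, 498 and 485 CPM at HFD 24 h, against 309, 369.9 and 762 CPM at HFD 0 h, and 1517, 1093 and 519 CPM at chow 24 h, against 1062, 579.9 and 359 CPM at chow 0 h. Its partner chain Col1a2 had 343, 359 and 334 CPM at HFD 24 h, against 226, 314 and 391 CPM at HFD 0 h, and 921, 661 and 319.7 CPM at chow 24 h, against 819, 445 and 262 CPM at chow 0 h. In both genes the 0 h and 24 h groups overlapped, and the chow replicates differed by more than the groups. Serpinh1, the chaperone of collagens, had 91.6, 77.9 and 70.0 CPM at HFD 24 h, against 63.1, 89.1 and 94.3 CPM at HFD 0 h, and 241, 195 and 80.7 CPM at chow 24 h, against 181, 96.9 and 65.1 CPM at chow 0 h. Its log2 fold changes were -0.03 ± 0.39 and 0.59 ± 0.38, and like the collagens it was the highest in chow replicate 1 at both times.

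The type VI collagens, beaded filaments of the tissue around cells, had negative estimates in both diets: -0.71, -0.72 and -0.84 for Col6a1, Col6a2 and Col6a3 in HFD, and -0.39, -0.45 and -0.50 in chow, with edgeR adjusted p from 0.15 to 0.48. When just the 6 HFD libraries were fitted, all 3 passed in HFD (edgeR adjusted p of 0.037, 0.013 and 0.026). The type IV chains Col4a1 and Col4a2 were at -0.09 and 0.01 in HFD and 0.54 and 0.64 in chow. These 2 genes start head to head on chromosome 8 and share bases 11312805 to 11312889, and it is not stated whether counting used strand, so reads there cannot be told apart. The members of the elastic fibre did not pass in the fit of group means. There Fbn1 and Fbln2 had positive estimates in both diets (0.46 to 0.74), Mfap5 had 0.88 ± 0.88 in HFD and 1.63 ± 0.76 in chow, and Eln was negative in both. Fbn1 and Fbln2 rose and Eln fell in both diets with the block by label number. Mfap5 passed in chow when just the chow libraries were fitted (edgeR adjusted p = 0.034). Fn1 had 979.7, 599 and 1026 CPM at HFD 24 h, against 1337, 797 and 1533 CPM at HFD 0 h, and 1972, 1614 and 1047 CPM at chow 24 h, against 2017, 1938 and 1443 CPM at chow 0 h. The Fn1 groups overlapped within each diet, with log2 fold changes of -0.49 ± 0.27 (edgeR adjusted p = 0.22) and -0.22 ± 0.27 (adjusted p = 0.61). With the block, Fn1 fell in HFD (-0.48 ± 0.12, edgeR adjusted p = 0.0065) and did not pass in chow. Sparc had 156, 159 and 137 CPM at HFD 24 h, against 113, 151 and 127 CPM at HFD 0 h, and 394, 283 and 161 CPM at chow 24 h, against 334, 195 and 116 CPM at chow 0 h, with 0.21 ± 0.34 and 0.38 ± 0.34. The matricellular gene Postn had -0.96 ± 0.55 in HFD and -0.57 ± 0.49 in chow, and the basement membrane linker Nid1 -0.21 ± 0.29 and 0.02 ± 0.27. The proteoglycan decorin (Dcn) had 0.24 ± 0.25 and 0.45 ± 0.24, and none of these passed without the block. With it, Sparc and Dcn rose in chow (edgeR adjusted p of 0.021 and 0.027). The receptors and regulators of stromal cells other than Pdgfrb (Pdgfra, the collagen receptor Ddr2, the cadherin Cdh11 and the transcription factor Prrx1) had estimates from -0.20 to 0.86 and did not pass. With the block, Prrx1 passed in chow (edgeR adjusted p = 0.016).

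Since the members share the chow replicate pattern, ratios of counts within a library, not corrected for length, were set against Col1a1. For every 100 Col1a1 counts there were 60.4, 72.1 and 68.9 Col1a2 counts at HFD 24 h, 73.2, 84.9 and 51.4 at HFD 0 h, 60.7, 60.5 and 61.6 at chow 24 h and 77.1, 76.8 and 73.1 at chow 0 h. In the 3 chow libraries of each time this ratio was nearly the same although Col1a1 itself differed widely. Col6a1 stood at 5.68, 7.20 and 5.21 counts for 100 of Col1a1 at HFD 24 h, against 14.2, 10.9 and 9.61 at HFD 0 h, and at 5.49, 5.12 and 5.89 at chow 24 h, against 9.63, 13.3 and 12 at chow 0 h. Eln stood at 0.403, 0.562 and 0.191 at HFD 24 h, against 1.42, 2.23 and 0.767 at HFD 0 h, and at 0.442, 0.451 and 0.277 at chow 24 h, against 1.97, 1.64 and 1.14 at chow 0 h. In all 6 libraries at 24 h both ratios were thus below those of all 6 at 0 h, a description of unequal change for which no test was run.

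Other genes of matrix building were counted against the background of all tested genes, of which 12.7% rose with LPS in HFD and 13.7% in chow, while 1511 of 12641 fell in HFD and 1628 (12.9%) in chow. Of 19 genes of collagen maturation, 5 rose (26.3%) and 0 fell in HFD, and 7 rose (36.8%) and 1 fell (5.3%) in chow, with median log2 fold changes of 0.44 and 0.41, against 0.00 over all genes. The transglutaminase Tgm2 (log2 fold change 1.72 ± 0.15 in HFD and 1.85 ± 0.15 in chow), the prolyl hydroxylase subunit P4ha1 (1.57 ± 0.18 and 1.44 ± 0.17) and the lysyl hydroxylase Plod3 (0.83 ± 0.15 and 0.65 ± 0.14) rose in both. Colgalt1, which adds sugars to collagen, fell by 0.51 on the log2 scale in chow. Of 27 tested further matrix proteins, 4 rose (14.8%) and 1 fell (3.7%) in HFD, and 7 rose (25.9%) and 2 fell (7.4%) in chow, with medians of 0.37 and 0.31; the HFD share that rose was near that of all genes. The proteoglycan genes Vcan (1.61 ± 0.22 and 1.91 ± 0.20) and Agrn (1.46 ± 0.23 and 1.20 ± 0.22) and the matricellular gene Ccn2 (1.53 ± 0.33 and 1.23 ± 0.30) rose in both diets, and the proteoglycan gene Ogn fell in both (-2.24 ± 0.52 and -1.76 ± 0.50).

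Of 19 genes of the TGF-beta pathway, 2 rose (10.5%) and 4 fell (21.1%) in each diet, with median log2 fold changes of -0.11 in HFD and -0.06 in chow. In either direction 31.6% passed, against 24.6% of all genes in HFD and 26.6% in chow. The receptor genes Tgfbr1 (-1.01 ± 0.15 and -1.12 ± 0.15) and Tgfbr2 (-0.60 ± 0.12 and -0.68 ± 0.12) fell in both, as did Ltbp3, which holds latent TGF-beta in the matrix (-1.29 ± 0.18 and -1.04 ± 0.18). Among 10 tested receptors for collagen and fibronectin, 2 rose and 2 fell in HFD, and 1 rose and 3 fell in chow, which is 40.0% in each diet against the same 24.6% and 26.6%, with medians of 0.06 and 0.03. The fibronectin receptor chain Itga5 rose (0.79 ± 0.16 and 1.01 ± 0.16), and the integrin chains Itgb3 (-2.29 ± 0.19 and -2.35 ± 0.20) and Itgb5 (-1.37 ± 0.17 and -1.38 ± 0.17) fell in both. The values named from these lists are edgeR estimates that passed at the adjusted threshold.

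With diet, 0 members passed at 24 h and 0 at 0 h in edgeR's test, against 0.00791% (1 gene) and 0.0870% (11 genes) of all tested genes. The estimates nonetheless lay on the same side: 33 of 34 members at 24 h and 30 of 34 at 0 h had a negative estimate (HFD against chow), with median log2 fold changes of -0.84 and -0.63. Over all tested genes the share with a negative estimate was 49.6% at 24 h and 49.4% at 0 h. An unadjusted p under 0.05 was reached by 19 members at 24 h (55.9%, against 7.9% of all genes) and by 6 at 0 h (17.6%, against 6.2%). The members share the same libraries, so their directions are not independent of each other. At 24 h the lane 8 mark covers every chow library but just replicate 1 of HFD. The diet difference at 24 h is thus partly mixed with that of lane, and the estimates here are not adjusted for it. The medians rest in part on the chow replicates 1: the 24 h median was -0.50 without chow 24 h replicate 1, with 34 of 35 tested members below 0, and the 0 h median was -0.24 without chow 0 h replicate 1, with 24 of 34 below 0. The LPS and diet comparisons share libraries, and their values are set side by side only.

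Bgn had the lowest adjusted p among the members at both times. It had 140.1, 116 and 138 CPM at HFD 24 h, against 409, 249.6 and 215 CPM at chow 24 h, and 94.0, 86.5 and 87.2 CPM at HFD 0 h, against 236, 169.7 and 123 CPM at chow 0 h. The HFD libraries were below all chow libraries at each time, with log2 fold changes of -1.15 ± 0.23 (edgeR adjusted p = 0.14) at 24 h and -0.98 ± 0.24 (adjusted p = 0.22) at 0 h. DESeq2, run as an alternative, called this gene and no other member, with adjusted p of 0.0017 at 24 h and 0.018 at 0 h, and limma-voom called none. In edgeR Bgn passed at 0 h without chow 0 h replicate 3 (adjusted p = 0.048). Thbs1 at 24 h (-0.69 ± 0.19, edgeR adjusted p = 0.33) and Tgfbi at 0 h (-0.81 ± 0.23, adjusted p = 0.35) were likewise lower in each HFD library than in any chow library without passing. Fn1 at 24 h differed by -0.83 ± 0.27 (edgeR adjusted p = 0.51), with 1026 CPM in the highest HFD library and 1047 in the lowest chow library.

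For the collagens the diet estimates at 24 h were -1.01 ± 0.44 for Col1a1, -0.88 ± 0.39 for Col1a2 and -1.18 ± 0.54 for Col3a1, and at 0 h -0.48 ± 0.44, -0.72 ± 0.39 and -0.68 ± 0.54. The adjusted p of the 5 fibrillar collagens ran from 0.53 to 0.64 at 24 h and from 0.71 to 0.96 at 0 h. At 24 h the HFD libraries of Col1a1 lay close together and chow replicate 3 (519 CPM) was within their range of 485 to 568 CPM, so the difference lay in chow replicates 1 and 2. Serpinf1, the antiangiogenic factor PEDF, was at 14.5, 9.85 and 10.7 CPM at HFD 24 h, against 38.9, 25.6 and 15.3 CPM at chow 24 h (-1.19 ± 0.32, edgeR adjusted p = 0.34). The members that did not share the negative side were Lox at 24 h (0.06 ± 0.36), and Fstl1 (0.36 ± 0.18), Nid2 (0.12 ± 0.53), Mfap5 (0.07 ± 0.98) and Col4a1 (0.03 ± 0.37) at 0 h. The 5 tested mural markers had a median diet difference of -0.54 at 24 h and -0.59 at 0 h, the 6 tested fibroblast markers outside the members of -0.49 and -0.64, the 7 tested mesothelial markers of -0.51 and -0.08, and the 11 macrophage markers of 0.02 and -0.14. None passed in edgeR, and an unadjusted p under 0.05 was reached by 0, 3, 2 and 1 of them at 24 h and by 0, 2, 0 and 2 at 0 h. Their part in the diet values was not tested. In edgeR none of the genes of collagen maturation, of the further matrix proteins, of the TGF-beta pathway or of the receptors passed with diet at either time. An unadjusted p under 0.05 was reached at 24 h by 4 of 19, 8 of 27, 4 of 19 and 1 of 10 of them, and at 0 h by 0, 4, 2 and 0.

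**Figure D5:**
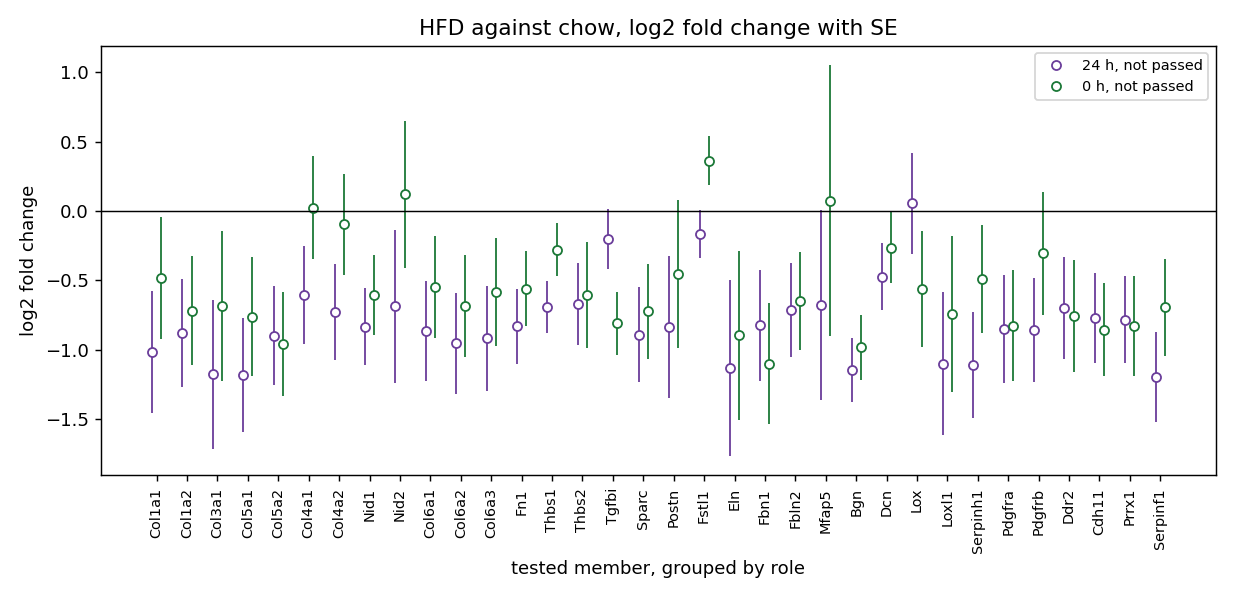
Log2 fold change (HFD against chow) of each of the 34 tested members at 24 h and at 0 h, with bars of 1 SE and open points for members that did not pass. The estimates lie below 0 for 33 members at 24 h and 30 at 0 h, and none passed.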

How the data were processed

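RNA from peritoneal macrophages was extracted with the Qiagen RNeasy kit and libraries were made with the NuGen Ovation kit, per the labels' protocols. CASAVA 1.8.2, STAR 2.5.2b and the build mm10 are named in the submitters' processing notes, while neither the counter nor strand use is given in the sources used here. The authors deposited raw counts for 35745 RefSeq transcripts in 12 columns. Names came from a RefSeq table for 35440 and from GENCODE for 188; the 117 others stayed under their identifiers. For each of the 24562 genes, the transcript of highest mean count was used. Testing used edgeR 4.0.16 in R 4.3.3: filterByExpr by group, TMM, and a quasi-likelihood fit of 4 group means over 12 libraries, with Benjamini-Hochberg adjustment over 12641 genes at 0.05. The biological coefficient of variation, common to all genes, was 18%. The SE is the absolute log2 fold change over the square root of F. Contrasts were 24 h against 0 h per diet, HFD against chow per time, and their interaction. Nothing in the labels says that libraries came from separate animals: the p-values then reflect just the spread among these samples, which may be technical. At 3 counts, CPM is 1.35 in the shallowest library and 0.138 in the deepest, and depth sets counting error only. Fits were tested on simulated data. Promoters are from RefSeq, GRCm38.p6. Members, lists and alternatives were chosen with earlier results of these data known. Values in every library are given for members called in a contrast and for the 8 highest per kb; others were named after their values were seen. Alternatives were other size factors and filters, DESeq2 1.42.0, limma-voom (limma 3.58.1), isoform sums, fewer libraries, a replicate block and the lane tag.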

Additional observations from a re-analysis of the deposited data

How the results depend on the processing

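The calls of Thbs1, Thbs2, Tgfbi and Lox with LPS held in both diets under every alternative run, with log2 fold changes from 1.36 (Thbs2) to 3.78 (Lox) in HFD and from 1.59 (Thbs2) to 3.10 (Lox) in chow, and no named gene with a call changed direction. In chow, 7 members passed; 4 passed with the lane tag as a covariate and 20 (17 up, 3 down) with the replicate block. Leaving out 1 library at a time gave 4 to 11: 4 without chow 0 h replicate 2 or without chow 24 h replicate 1, and 11 without chow 0 h replicate 1. In HFD, 5 passed; 10 (5 up, 5 down) passed when only the libraries compared were fitted, 13 (7 up, 6 down) with the block, and 4 to 7 with 1 library left out. With diet at 0 h, 0 passed; 1 (Bgn) passed with DESeq2 and 0 to 1 with 1 library left out, where Bgn passed without chow 0 h replicate 3 (log2 fold change -1.19, edgeR adjusted p = 0.048). With diet at 24 h, 0 passed, 1 (Bgn) with DESeq2, and 0 with any library left out. The interaction gave 0 members under every alternative. These counts stand without the share of all genes in the same fits, and no comparison with that share is made.

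The calls of Bgn, Fstl1 and Pdgfrb in chow and of Nid2 in HFD ended with the lane tag (edgeR adjusted p of 0.47, 0.51, 0.30 and 0.096). Upper-quartile factors ended those of Bgn (0.053) and Fstl1 (0.066), and moved the members' median LPS change to 0.42 in chow and 0.06 in HFD. Isoform sums ended that of Nid2 (0.055). Fitting just the chow libraries ended that of Bgn and added Mfap5 (0.034); fitting just the HFD libraries added Bgn, Eln and the 3 type VI collagens. Leaving out both chow libraries numbered 1 ended those of Fstl1 (0.099) and Pdgfrb (0.051), and leaving out both HFD libraries numbered 7 those of Bgn (0.059) and Nid2 (0.095). The median interaction of the members was -0.27, but 0.08 without chow 24 h replicate 1 and 0.02 without chow 0 h replicate 3. In these cases the cause was not tested.

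The labels do not state that their numbers (1, 2 and 3 in chow, and 4, 6 and 7 in HFD) pair the samples. The main fit did not pair them, and it leaves a pairing out if the numbers mark one. Deviations of same-numbered libraries across genes correlated at 0.30, 0.09 and 0.35 in chow and at 0.06, 0.26 and 0.03 in HFD. Libraries of unlike number correlated at -0.307 to 0.109 in chow and at -0.185 to 0.091 in HFD, so the same-numbered values were mostly the higher ones. Chow 24 h replicate 2 and HFD 24 h replicate 1 correlated better with another number than their own. With the block, structural collagens passed: Col1a1 (0.65, edgeR adjusted p = 0.024), Col5a1 and Col4a2 up and Col6a2 and Col6a3 down in chow, and Col6a1, Col6a2 and Col6a3 down in HFD (adjusted p of 0.019, 0.0039 and 0.0035). It also called Fbn1 and Fbln2 up and Eln down in both diets, and Fn1 down in HFD. Dcn, Sparc, Serpinh1, Serpinf1 and Prrx1 rose with it in chow. Bgn, Fstl1 and Pdgfrb passed with it in chow (edgeR adjusted p of 0.00026, 0.0047 and 0.0036), and Bgn (0.0032) and Nid2 (0.021) in HFD. Chow and HFD share no label number, so for diet the block was the replicate order instead, a matching for which the labels give no basis. That block gave 0 members with diet at either time. Depth limits the low members most: Lum, Mfap5 and Nid2 had under 65 counts in any library, and Lum could not be tested.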
